A study of Homo sapiens with 6 samples.

Results

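The heat shock proteins and their co-chaperones were examined in HK-2 cells, an established line of human kidney proximal tubule cells, after exposure to the platinum drug cisplatin. The members were the genes whose platform symbol began with HSPA, HSPB, HSPD, HSPE, HSPH or HSP90, or with DNAJA, DNAJB or DNAJC, followed by a digit (for HSP90 by A or B), together with BAG3 and HSF1. This gave 83 of the 18242 genes tested, 10 of them pseudogenes. The members had 222 probe sets to themselves, and each was read by its brightest one on average. A further gene that the rule names singly was not analysed here.

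The study held 3 groups of 2 arrays, each array 1 RNA sample on the human U219 platform. The groups were cells left untreated (control, for which no time is labelled), cells given 50 µM cisplatin for 6 h and cells given 50 µM cisplatin for 24 h. All of them were kept in keratinocyte serum-free medium with epidermal growth factor and bovine pituitary extract. The arrays of a group are labelled biological replicates and nothing more is said of their origin, so p-values measure only the spread between these samples, which may be technical. No untreated cells were labelled as kept for 6 h or 24 h, so that cisplatin and time in culture cannot be told apart.

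Heat shock proteins are molecular chaperones. HSP70 proteins (HSPA genes) hold unfolded stretches of other proteins in a cycle that J-proteins (DNAJ genes) start and exchange factors such as BAG3 and HSPH1 end, while HSP90 proteins mature kinases and receptors, small heat shock proteins (HSPB genes) keep damaged proteins soluble and HSPD1 with HSPE1 forms the folding chamber of mitochondria. In the cytosol the transcription factor HSF1 is held back by chaperones, and upon protein damage it binds as a trimer to heat shock elements in the promoters of inducible members. Members of the endoplasmic reticulum (ER), such as HSPA5 and DNAJB9, belong to the unfolded protein response, and in the proximal tubule inducible heat shock proteins are known from ischaemic and toxic injury.

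The promoters of 6 members are shown because 5 of them hold matches to heat shock units or to the ER stress element, and because that of HSPA2, the member with the largest rise, held none of those searched. RefSeq promoter windows (GRCh38.p14, 250 bases before the start of a gene and 50 after it) were matched to 65 of the 83 members and to 14484 of the 18242 genes. The bases before the start are printed 5′ to 3′ on the strand of the gene, from HSPA6 at chr1:161524290-161524539 (plus strand), HSPA1B at chr6:31827488-31827737 (plus strand), HSPB8 at chr12:119178681-119178930 (plus strand), HSPA8 at chr11:123062137-123062386 (minus strand), HSPA2 at chr14:64540491-64540740 (plus strand) and HSPA5 at chr9:125241344-125241593 (minus strand). Capitals mark pairs of inverted heat shock units (GAANNTTC or TTCNNGAA) and, in HSPA5, the ER stress element.
HSPA6: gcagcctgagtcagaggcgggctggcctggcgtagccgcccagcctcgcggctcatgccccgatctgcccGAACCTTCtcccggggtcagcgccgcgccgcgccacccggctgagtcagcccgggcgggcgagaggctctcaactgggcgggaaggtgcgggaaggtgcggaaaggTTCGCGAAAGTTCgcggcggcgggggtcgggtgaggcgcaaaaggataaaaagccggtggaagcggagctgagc
HSPA1B: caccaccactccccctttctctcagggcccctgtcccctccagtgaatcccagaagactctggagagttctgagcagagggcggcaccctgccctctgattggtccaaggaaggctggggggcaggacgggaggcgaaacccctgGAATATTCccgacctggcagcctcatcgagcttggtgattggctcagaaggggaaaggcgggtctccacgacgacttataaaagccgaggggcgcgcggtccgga
HSPB8: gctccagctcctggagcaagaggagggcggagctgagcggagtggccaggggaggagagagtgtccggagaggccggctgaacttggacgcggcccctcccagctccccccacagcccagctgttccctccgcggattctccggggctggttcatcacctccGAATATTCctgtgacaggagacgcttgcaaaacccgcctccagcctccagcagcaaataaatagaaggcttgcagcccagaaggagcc
HSPA8: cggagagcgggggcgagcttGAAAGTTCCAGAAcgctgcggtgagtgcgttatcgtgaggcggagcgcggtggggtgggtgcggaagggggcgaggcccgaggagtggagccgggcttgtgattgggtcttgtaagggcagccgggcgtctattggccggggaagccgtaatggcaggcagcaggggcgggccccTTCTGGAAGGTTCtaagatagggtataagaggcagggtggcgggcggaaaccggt
HSPA2: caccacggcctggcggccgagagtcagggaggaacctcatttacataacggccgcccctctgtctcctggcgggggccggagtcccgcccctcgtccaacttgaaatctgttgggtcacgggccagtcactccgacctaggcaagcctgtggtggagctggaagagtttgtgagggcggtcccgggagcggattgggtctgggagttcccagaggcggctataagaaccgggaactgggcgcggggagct
HSPA5: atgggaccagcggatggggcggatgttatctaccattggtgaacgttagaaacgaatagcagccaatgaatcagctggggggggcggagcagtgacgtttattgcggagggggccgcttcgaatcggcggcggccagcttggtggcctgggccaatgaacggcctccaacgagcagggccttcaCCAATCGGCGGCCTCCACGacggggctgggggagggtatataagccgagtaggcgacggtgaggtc

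GAANNTTC stood in 11 of the 65 member promoters (16.9%) and in 5.44% of all 14484 promoters. TTCNNGAA stood in 8 of them (12.3%) and in 6.56% of all. Each motif reads the same on both strands, and 14 members (21.5%) held one or the other, beside 11.2% of all promoters. An overlap of both, which makes 3 alternating units, stood in the promoters of DNAJA1, DNAJB6, HSPA6 and HSPA8 (6.15%), beside 0.400% of all. The ER stress element, searched on both strands as CCAAT and CCACG 9 bases apart, was found in HSPA5 and HSP90B1 (3.08%), beside 0.1105% of all. A match describes letters in this window, and where there is no match only these letters are missing from it.

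The members moved in both directions at both times. At 6 h, 23 members were higher and 14 lower than in control (limma, Benjamini-Hochberg adjusted p under 0.05 over all 18242 genes). These were 27.7% and 16.9% of the members, where 14.0% of all genes were higher and 15.8% lower. At 24 h, 35 members were higher and 21 lower than in control, which is 42.2% and 25.3%, where 31.2% of all genes were higher and 23.0% lower. The share of higher members lay above that of all genes at both times, and the share of lower members lay near it. All genes include 7945 dim ones, which passed less often. Among the 10297 genes at a log2 signal of 5 or more in at least 2 arrays, 21.4% were higher and 25.1% lower at 6 h. At 24 h these were 35.0% and 36.8%. The 61 members as bright had 34.4% and 23.0% at 6 h, then 41.0% and 34.4% at 24 h. The median log2 fold change of the members was 0.07 at 6 h and 0.18 at 24 h, beside 0.03 and 0.10 over all genes. Under the rule of the study's methods, a 2-fold change with an unadjusted p under 0.01, 6 members passed at 6 h (7.23%, where 4.93% of all genes passed) and 9 at 24 h (10.8%, where 12.1% passed).

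**Figure D1:**
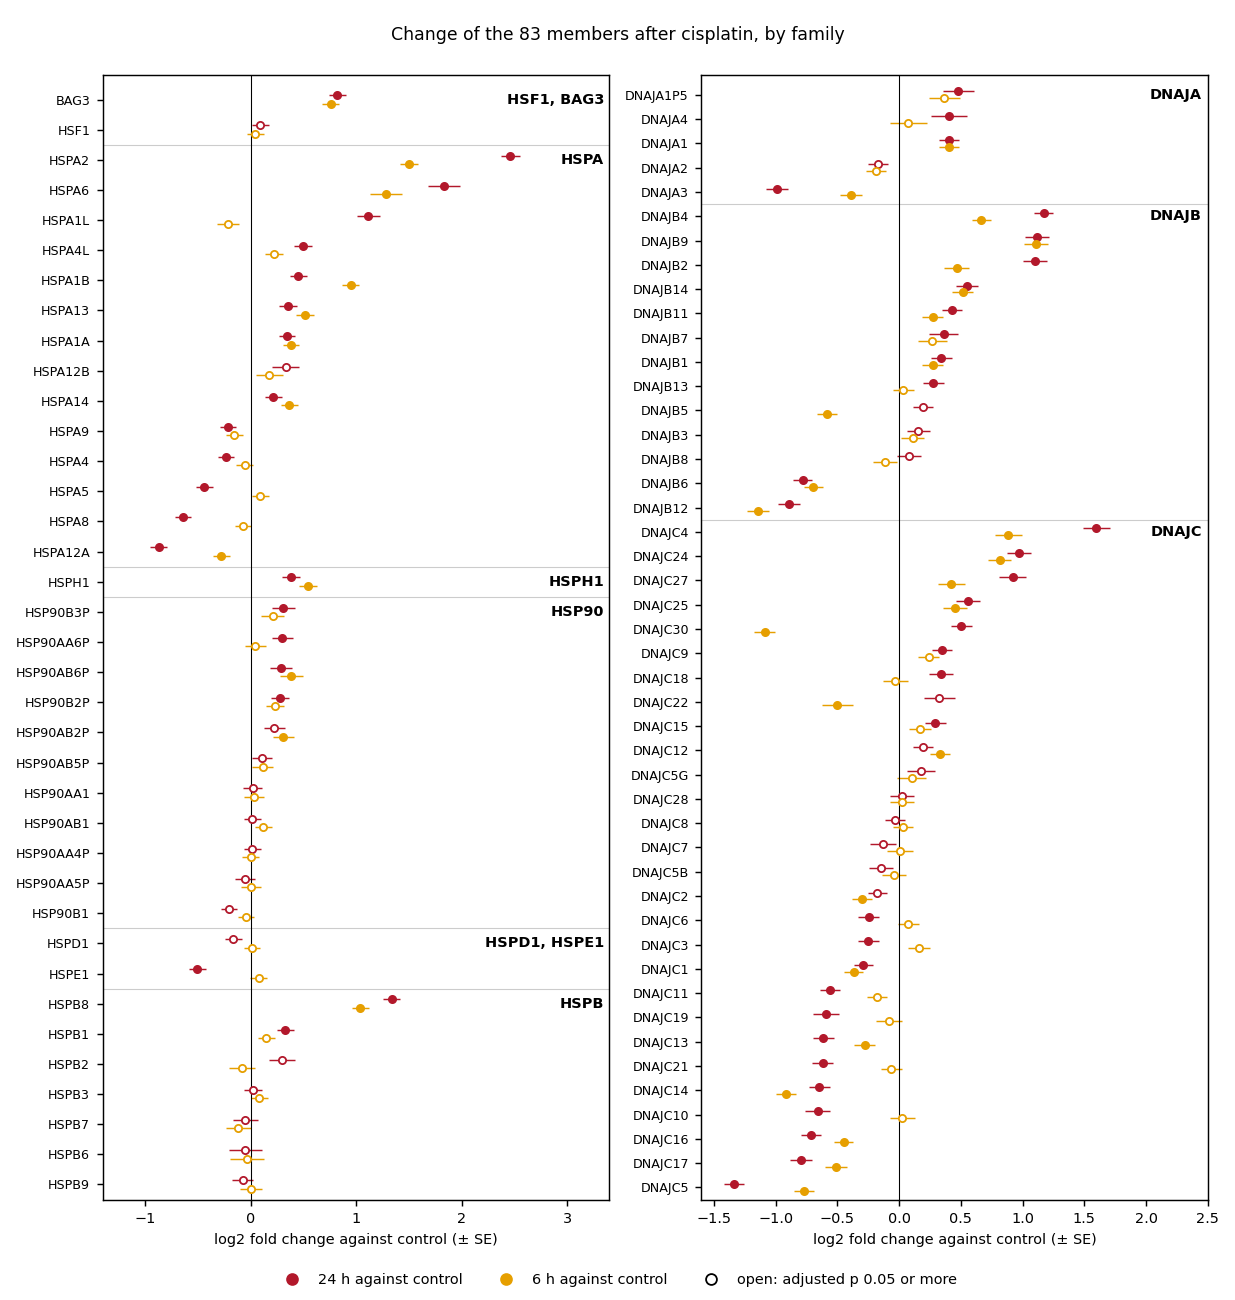
Log2 fold change against control (± standard error, 2 arrays a group) of the 83 members at 24 h and 6 h, grouped by family, with open points where the adjusted p was 0.05 or more. By the brightest probe set of each gene, HSPA2 (2.46), HSPA6 (1.84) and DNAJC4 (1.60) have the largest rises at 24 h and DNAJC5 (−1.34) the largest fall.

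Of the members that passed at 6 h, 21 were higher and 10 lower at both times, and DNAJC30 was lower at 6 h and higher at 24 h. A further 13 were higher and 11 lower at 24 h alone, 2 were higher and 3 lower at 6 h alone, and 22 passed at neither time. Both comparisons share the control arrays. Set directly against 6 h, 15 members were higher and 16 lower at 24 h, where 21.2% of all genes were higher and 16.7% lower. Of the 21 members higher at both times, 7 were higher again at 24 h than at 6 h (DNAJB2, DNAJB4, DNAJC27, DNAJC4, HSPA2, HSPA6 and HSPB8) and HSPA1B was lower. Hybridization spike-in scaling, which is described next, left the steps of DNAJB4 (0.19), DNAJC27 (0.19) and HSPA6 (0.24) short of the threshold and turned that of HSPB8 below 0.

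All values are relative to the whole of each array, because the deposited normalization gives the arrays one common distribution. The hybridization spike-ins, control RNAs added in fixed amount before hybridization, lay 0.0975 higher at 6 h and 0.410 higher at 24 h than in control. Scaling to them lowers every log2 fold change by that much, so the median of all genes at 24 h became −0.31 and any 24 h rise smaller than 0.410 turned below 0. Then 11 members were higher and 40 lower at 24 h, a share of 21.6% higher among the calls in place of 62.5%, and at 6 h 15 were higher and 15 lower, 50.0% in place of 62.2%. Over all genes the same share became 15.0% in place of 57.5% at 24 h and 30.3% in place of 46.9% at 6 h. The 11 were BAG3, DNAJB2, DNAJB4, DNAJB9, DNAJC24, DNAJC27, DNAJC4, HSPA1L, HSPA2, HSPA6 and HSPB8, and with all 36 spike-ins only DNAJB4, DNAJC4, HSPA2, HSPA6 and HSPB8 were higher at 24 h. DNAJA1P5, DNAJB11, DNAJB14, DNAJC25, DNAJC30, HSPA1B and HSPA4L stayed above 0 at 24 h with hybridization spike-in scaling but no longer passed. The 6 h rises of DNAJB1, DNAJB11, DNAJC12, DNAJC27, HSPA14, HSPA1A, HSP90AB2P and HSP90AB6P also fell short of the threshold with it. Over all probe sets that are not controls, arrays of a group correlated at 0.996 to 0.998 and arrays of different groups at 0.960 to 0.985. Signs of RNA quality also moved, since the signal at the 3′ end minus that at the 5′ end averaged 0.349 at 24 h, 0.249 at 6 h and 0.265 in control for GAPDH, with both 24 h arrays above control. For beta-actin the 24 h arrays had 1.97 and 2.83, those of 6 h 2.02 and 1.53 and the control arrays 2.07 and 1.11, so that these groups overlapped. The poly-A spike-ins lay 0.541 higher at 6 h and 1.21 higher at 24 h than in control. Of 13 epithelial and proximal tubule markers measured, EPCAM, KRT8, KRT18, KRT19 and PAX8 were at a log2 signal of 5 or more and the other 8 were below it, as were all 5 endothelial markers, 5 of 6 leukocyte markers (all but CD68) and 4 of 6 fibroblast markers (all but DCN and LUM). At 24 h, 2 epithelial and tubule markers were higher and 4 lower than in control, from CUBN (0.50, dim) to KRT19, which averaged 9.53 at 24 h and 11.65 in control. Of the others, 3 leukocyte, 1 fibroblast and 1 endothelial marker were higher and 0 lower, among them CD68, which averaged 8.68 at 24 h and 7.71 in control, while the defining leukocyte marker PTPRC stayed dim (2.79 at 24 h and 2.92 in control). In bulk RNA fewer cells of a type and less RNA per cell cannot be told apart, and the part of these shifts, of the markers and of RNA quality, in the members' changes was not tested.

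HSF1 did not pass in any comparison. Its log2 signals were 7.01 and 6.92 in control, 7.06 and 6.97 at 6 h and 7.08 and 7.05 at 24 h. The 6 h arrays overlapped control and the 24 h arrays lay just above it, with a log2 fold change of 0.05 at 6 h (adjusted p = 0.733) and 0.09 at 24 h (standard error 0.08, adjusted p = 0.364). With hybridization spike-in scaling the 24 h value was −0.32 and passed as lower (adjusted p = 0.0218). Of 10 regulators of HSF1, 1 was higher and 1 lower at 6 h (10.0% each, beside 14.0% and 15.8% of all genes). At 24 h 2 were higher and 3 lower (20.0% and 30.0%, beside 31.2% and 23.0%). SIRT1, a deacetylase that prolongs the binding of HSF1 to DNA, was higher by 0.97 at 6 h and 0.95 at 24 h, and FBXW7, which marks HSF1 for degradation, was at −1.39 and −1.50.

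BAG3, an exchange factor that couples HSP70 to selective autophagy, was higher at both times. Its log2 signals were 9.29 and 9.33 in control, 10.05 and 10.10 at 6 h and 10.10 and 10.17 at 24 h. No treated array reached control, at 0.76 for 6 h (adjusted p = 0.000159) and 0.82 for 24 h (standard error 0.08, adjusted p = 4.11e-05), and 24 h did not pass against 6 h (0.06, adjusted p = 0.561). HSPB8, the small heat shock protein that works in a complex with BAG3, had log2 signals of 8.33 and 8.21 in control, 9.33 and 9.29 at 6 h and 9.59 and 9.63 at 24 h. Its groups were all apart, with log2 fold changes of 1.04 at 6 h (adjusted p = 3.73e-05) and 1.34 at 24 h (standard error 0.08, adjusted p = 3.42e-06), and its other probe set gave 0.87 and 0.88. The further step of 0.30 at 24 h over 6 h (adjusted p = 0.0214) was 0.27 to 0.32 without any one 6 h array or 24 h replicate 2, where it no longer passed, and −0.02 with hybridization spike-in scaling.

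The HSP70 family held the largest rise of all members. HSPA2, an HSP70 best known from the testis, had log2 signals of 7.17 and 7.19 in control, 8.66 and 8.71 at 6 h and 9.73 and 9.56 at 24 h. Its groups were all apart, 2.83-fold higher at 6 h and 5.52-fold higher at 24 h than in control (log2 1.50 and 2.46, standard error 0.09, adjusted p = 8.94e-06 and adjusted p = 2.75e-07). HSPA6, an HSP70 that human cells make almost only under stress, had log2 signals of 4.24 and 3.93 in control, 5.51 and 5.23 at 6 h and 5.75 and 6.09 at 24 h. No treated array overlapped control, which lay below the log2 signal of 5 taken here as dim, and the log2 fold change was 1.29 at 6 h (adjusted p = 0.000321) and 1.84 at 24 h (standard error 0.15, adjusted p = 1.79e-05). The 24 h arrays lay 0.55 above those of 6 h (adjusted p = 0.0219), a difference of 0.38 without 24 h replicate 2 and 0.41 without 6 h replicate 2 and of 0.24 with hybridization spike-in scaling, where it did not pass. The probe set assigned to HSPA6 together with the near-identical HSPA7 gave 1.56 at 6 h and 2.11 at 24 h.

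HSPA1A and HSPA1B encode the major inducible HSP70 and are nearly identical, so that probe sets for one may also read the other. HSPA1B had log2 signals of 10.67 and 10.77 in control, 11.66 and 11.68 at 6 h and 11.15 and 11.19 at 24 h. It was highest at 6 h, 0.95 above control (adjusted p = 5.49e-05), and the 24 h arrays lay between, 0.45 above control (adjusted p = 0.00159) and at −0.50 against 6 h (adjusted p = 0.00186, standard error 0.08). HSPA1A had log2 signals of 12.16 and 12.17 in control, 12.53 and 12.55 at 6 h and 12.52 and 12.50 at 24 h. Both treated groups were above control, by 0.38 at 6 h (adjusted p = 0.00537) and 0.34 at 24 h (adjusted p = 0.00486), the 24 h value turning to −0.07 with hybridization spike-in scaling. Its other probe set gave 0.88 at 6 h and 0.57 at 24 h. The probe sets assigned to both genes gave 0.85 and 1.10 at 6 h and 0.32 and 0.63 at 24 h, higher at 6 h like HSPA1B.

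HSPA1L, a neighbour of HSPA1A on chromosome 6 that is known from the testis, took another course. Its log2 signals were 4.52 and 4.65 in control, 4.25 and 4.50 at 6 h and 5.65 and 5.76 at 24 h. The 24 h arrays stood above all others, at 1.12 against control and 1.33 against 6 h (standard error 0.11, adjusted p = 3.83e-05 and adjusted p = 7.25e-05), and the 6 h value was −0.21 (adjusted p = 0.186). The promoter windows of HSPA1L and HSPA1A lie on opposite strands and share 241 bases. The GAANNTTC in them starts at position −161 counted from the start of HSPA1L and at −106 counted from that of HSPA1A.

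**Figure D2:**
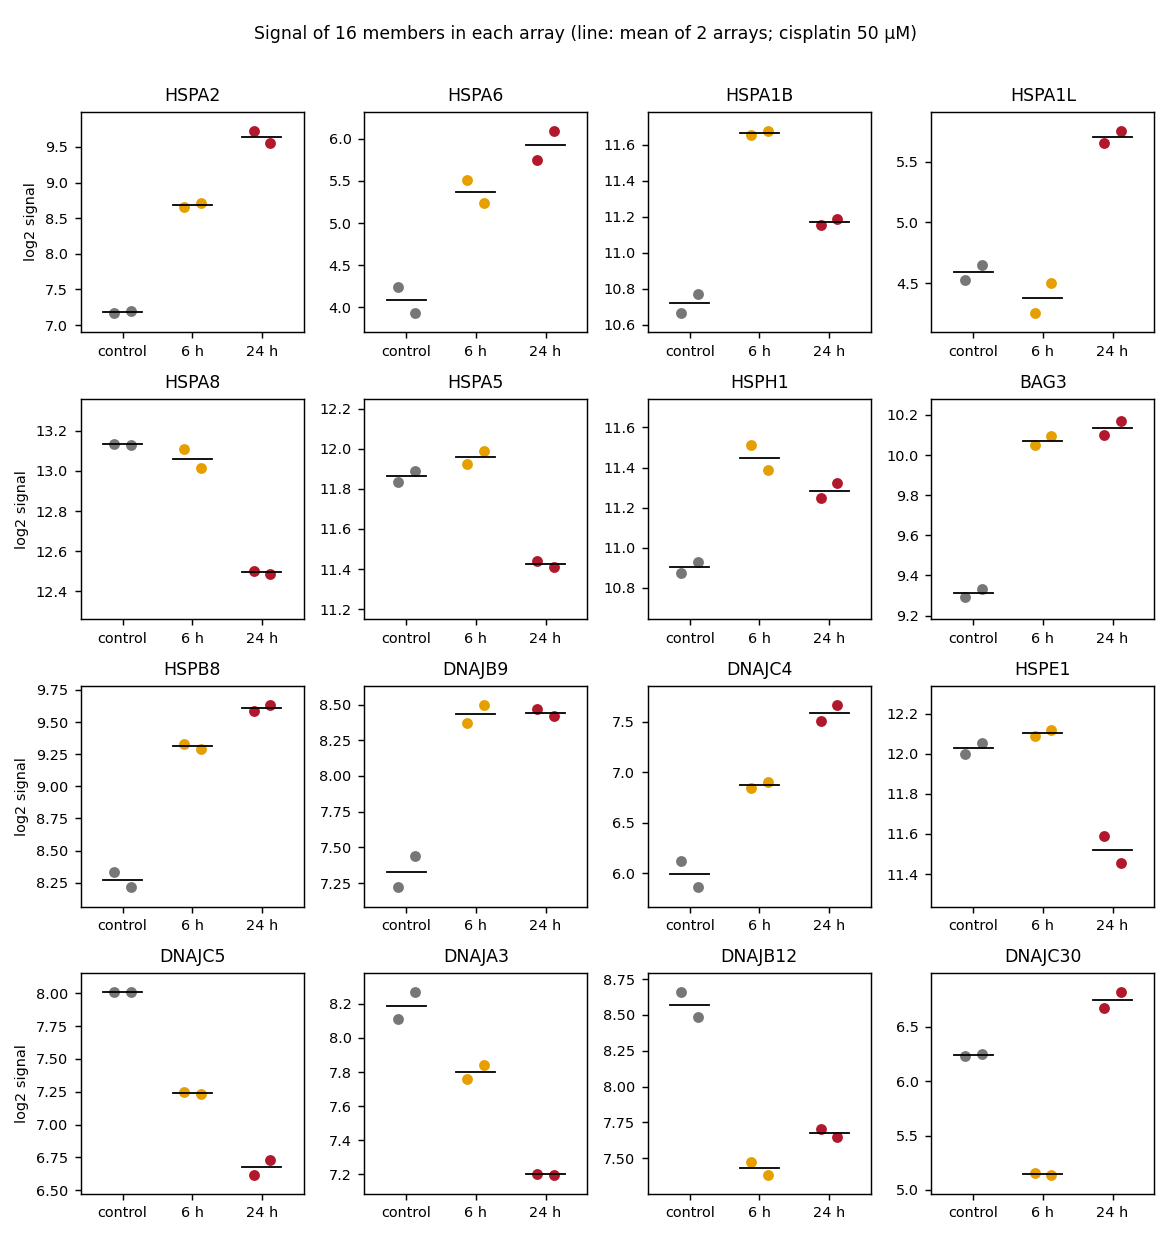
Log2 signal of 16 members in each of the 6 arrays, from control through 6 h to 24 h, with a line at the mean of the 2 arrays (each panel has its own vertical range). HSPA2 climbs at each time, HSPA1B is highest at 6 h, and HSPA8, HSPA5 and HSPE1 lie low at 24 h.

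Several constitutive HSP70 members were lower at 24 h. HSPA8, the abundant HSC70 of the cytosol, had log2 signals of 13.13 and 13.13 in control, 13.11 and 13.02 at 6 h and 12.50 and 12.48 at 24 h. The 24 h arrays lay below all others, at −0.64 against control and −0.57 against 6 h (standard error 0.08, adjusted p = 0.000184 and adjusted p = 0.000864), and the 6 h value was −0.07 (adjusted p = 0.561). Of its other probe sets, 4 gave −1.12 to −1.55 at 24 h, and the remaining pair, at mean signals of 4.67 and 4.64, gave 0.89 and 2.98. The HSPA8 promoter printed above holds 3 alternating units at 2 places, the same arrangement that HSPA6 holds once.

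HSPA5 (BiP), the HSP70 of the ER lumen, had log2 signals of 11.83 and 11.89 in control, 11.92 and 11.99 at 6 h and 11.44 and 11.41 at 24 h. The 6 h arrays lay slightly above control (0.09, adjusted p = 0.438) and the 24 h arrays below all others, at −0.44 against control and −0.53 against 6 h (standard error 0.08, adjusted p = 0.00167 and adjusted p = 0.00118). All 6 of its probe sets were positive at 6 h and negative at 24 h. HSPA9 (mortalin), the HSP70 of mitochondria, gave −0.15 at 6 h and −0.21 at 24 h (adjusted p = 0.0454), and the 24 h call was lost at −0.23 to −0.20 without any one of the 6 arrays. HSPA4, an exchange factor of the HSP110 type, gave −0.06 and −0.23 (adjusted p = 0.0332 at 24 h). Its call was lost at −0.23 to −0.19 without any one 6 h or control array or 24 h replicate 1. With the mean of probe sets HSPA9 (−0.26) and HSPA4 (−0.48) passed as lower at 24 h. HSPA4 then also passed as lower against 6 h (−0.49). HSPA12A, a distant relative, gave −0.28 at 6 h (adjusted p = 0.0303) and −0.87 at 24 h (adjusted p = 3.38e-05). The 6 h call of HSPA12A was lost at −0.32 to −0.24 without any one 6 h or control array, and its dim other probe set gave 0.01 and 0.15.

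Other members tied to HSP70 were higher. HSPH1, the inducible HSP110, had log2 signals of 10.87 and 10.93 in control, 11.51 and 11.39 at 6 h and 11.25 and 11.32 at 24 h. Both treated groups lay above control, by 0.55 at 6 h (adjusted p = 0.00135) and 0.38 at 24 h (standard error 0.08, adjusted p = 0.00485), the 24 h value turning to −0.03 with hybridization spike-in scaling. All 8 of its probe sets were positive at both times. HSPA4L, of the HSP110 type, gave 0.22 at 6 h (adjusted p = 0.0883) and 0.49 at 24 h (adjusted p = 0.00135). By brightest probe sets HSPA13 was higher by 0.52 and 0.36 and HSPA14, a ribosome-associated HSP70, by 0.37 and 0.22. Both were below 0 at 24 h with hybridization spike-in scaling. With the mean of probe sets HSPA13 gave 0.41 and 0.74 and HSPA14 0.17 and 0.35, of which only the 0.17 did not pass. Set against 6 h, other probe sets of HSPA13 (0.93 and 0.84) and of HSPA14 (0.95) were higher at 24 h. The call of HSPA14 was lost at 6 h at 0.37 without 6 h replicate 2 and at 24 h at 0.17 to 0.26 without any one of the 6 arrays. HSPA12B passed at neither time.

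None of the 3 HSP90 genes that are not pseudogenes passed in any comparison (limma, with only HSP90B1 at 24 h under an unadjusted p of 0.05). HSP90AA1, the inducible form of the cytosol, had log2 signals of 12.51 and 12.66 in control, 12.58 and 12.65 at 6 h and 12.69 and 12.52 at 24 h. Its groups overlapped, with 0.03 at 6 h and 0.02 at 24 h (standard error 0.09, adjusted p = 0.866 and adjusted p = 0.882). HSP90AB1, the constitutive form, gave 0.12 and 0.02 (standard error 0.08, adjusted p = 0.307 and adjusted p = 0.867). Scaled to the hybridization spike-ins, the 24 h values were −0.39 and −0.39 and passed as lower. HSP90B1 (GRP94), the ER form, gave −0.04 at 6 h and −0.20 at 24 h (standard error 0.08, adjusted p = 0.0519), and all 7 of its probe sets were negative at 24 h. With hybridization spike-in scaling its 24 h value was −0.61 (adjusted p = 9.21e-05), and it also passed as lower with the filter on low values (−0.20) and with housekeeping scaling (−0.22). When the probe sets of each gene were averaged, HSP90AA1 passed as higher at 6 h (0.23) and 24 h (0.31) and HSP90B1 as lower at 24 h (−0.35), and moderation with a trend called HSP90AB1 higher at 6 h and HSP90B1 lower at 24 h at unchanged values.

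The 8 HSP90 pseudogenes share sequence with these genes, so their probe sets are uncertain. At 24 h HSP90AA6P, HSP90AB6P, HSP90B2P and HSP90B3P were higher, by 0.28 to 0.31, all below 0 with hybridization spike-in scaling, and at 6 h HSP90AB2P and HSP90AB6P were higher. The 24 h calls were lost for HSP90AA6P at 0.18 to 0.30 without any one control array or 24 h replicate 2, for HSP90AB6P at 0.15 to 0.33 without any one 6 h or control array or 24 h replicate 1, for HSP90B2P at 0.23 to 0.31 without any one control array or 24 h replicate 2 and for HSP90B3P at 0.16 to 0.32 without any one 24 h or 6 h array or control replicate 1. The 6 h calls were lost for HSP90AB2P at 0.21 to 0.34 without any one control array or 6 h replicate 2 and for HSP90AB6P at 0.35 to 0.43 without any one 6 h or control array. HSP90AA4P, HSP90AA5P and HSP90AB5P passed at neither time. Of the 22 members under a log2 signal of 5 in all but at most 1 array, 10 were higher and 0 lower at 24 h (limma, and 12 higher and 0 lower at an unadjusted p under 0.05), where 26.2% of the 7945 genes as dim were higher and 5.20% lower. The 61 brighter members had 25 higher and 21 lower (41.0% and 34.4%), beside 35.0% and 36.8% of the 10297 brighter genes. The nonspecific control probe sets averaged 2.55 at 24 h and 2.45 in control, and their part in the dim calls was not tested.

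Among the small heat shock proteins, HSPB1 (Hsp27), which guards unfolded proteins and actin, had log2 signals of 11.13 and 11.07 in control, 11.22 and 11.29 at 6 h and 11.45 and 11.41 at 24 h. The groups were apart, but of the comparisons with control only that at 24 h passed, at 0.33 (adjusted p = 0.00789), beside 0.15 at 6 h (adjusted p = 0.21). The 24 h value was −0.08 with hybridization spike-in scaling. HSPB8 was described above, and HSPB2, HSPB3, HSPB6, HSPB7 and HSPB9 did not pass against control. HSPB2 was higher at 24 h than at 6 h by 0.38 (adjusted p = 0.0412), a call lost at 0.28 to 0.46 without any one 24 h array or 6 h replicate 2.

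Both parts of the mitochondrial chaperonin were measured, and on the deposited scale 1 of them passed. HSPE1, the lid of the chamber, had log2 signals of 12.00 and 12.05 in control, 12.09 and 12.12 at 6 h and 11.59 and 11.46 at 24 h. Its 24 h arrays lay below all others, at −0.50 against control and −0.58 against 6 h (standard error 0.08, adjusted p = 0.00103 and adjusted p = 0.000999), in all 3 of its probe sets. At 6 h this probe set of HSPE1 gave 0.08 and did not pass, while another was already lower (−0.37). The mean of its probe sets at 6 h was −0.18 and did not pass. HSPD1, the chamber itself, gave 0.02 at 6 h and −0.16 at 24 h (standard error 0.08, adjusted p = 0.906 and adjusted p = 0.112), and 6 of its 8 probe sets were negative at 24 h. The start sites of these neighbours lie on opposite strands of chromosome 2 and their promoter windows share 204 bases. The difference between the 2 genes was not tested, and HSPD1 also passed as lower at 24 h with hybridization spike-in scaling (−0.57, adjusted p = 0.000182) and, at an unchanged value, with moderation by a trend.

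Of the type A J-proteins, DNAJA1, a partner of cytosolic HSP70, had log2 signals of 10.72 and 10.79 in control, 11.20 and 11.12 at 6 h and 11.20 and 11.12 at 24 h. Both treated groups were apart from control, at 0.40 for 6 h (adjusted p = 0.00595) and 0.40 for 24 h (adjusted p = 0.00333), the 24 h value turning to −0.01 with hybridization spike-in scaling. The 6 h call was lost at 0.37 without 6 h replicate 1, and its other probe sets gave 0.10, −0.32, 0.51 and 0.17 at 24 h, of which 0.51 and −0.32 passed. With the mean of its probe sets the 24 h value was 0.17 and did not pass. DNAJA3, the mitochondrial partner of HSPA9, had log2 signals of 8.11 and 8.27 in control, 7.76 and 7.84 at 6 h and 7.20 and 7.20 at 24 h. It was lower at each step, at −0.39 for 6 h (adjusted p = 0.00965) and −0.99 for 24 h (standard error 0.09, adjusted p = 2.52e-05), in all 3 of its probe sets, and lost its 6 h call at −0.35 without 6 h replicate 1 and −0.31 without control replicate 2. DNAJA2, another cytosolic partner, did not pass by its brightest probe set (−0.19 at 6 h and −0.17 at 24 h). Its other probe set gave 0.21 at 6 h and −1.12 at 24 h, and DNAJA2 passed as lower at 24 h with the mean of both (−0.65), with hybridization spike-in scaling (−0.58) and with moderation by a trend. The dim DNAJA4 and the pseudogene DNAJA1P5 were higher at 24 h, DNAJA4 not with hybridization spike-in scaling, where it fell below 0. These calls were lost for DNAJA4 at 0.18 to 0.48 without any one control array or 24 h replicate 1 and for DNAJA1P5 at 0.45 without control replicate 1.

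At 6 h the 13 type B J-proteins had 6 higher and 3 lower members (46.2% and 23.1%, beside 14.0% and 15.8% of all genes), then 8 higher and 2 lower at 24 h (61.5% and 15.4%, beside 31.2% and 23.0%). DNAJB9 (ERdj4), which serves HSPA5 and is a known target of the unfolded protein response, had log2 signals of 7.22 and 7.44 in control, 8.37 and 8.50 at 6 h and 8.47 and 8.42 at 24 h. The treated arrays lay above control, by 1.11 at 6 h (adjusted p = 7.1e-05) and 1.12 at 24 h (standard error 0.10, adjusted p = 2.54e-05), and overlapped each other. DNAJB4, a heat-inducible partner of HSP70, had log2 signals of 7.49 and 7.55 in control, 8.22 and 8.16 at 6 h and 8.70 and 8.68 at 24 h. It was higher at each step, by 0.67 at 6 h (adjusted p = 0.000308) and 1.17 at 24 h (standard error 0.08, adjusted p = 5.4e-06), in all 3 of its probe sets.

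DNAJB1 (Hsp40), the main inducible partner of HSP70, had log2 signals of 9.48 and 9.48 in control, 9.74 and 9.76 at 6 h and 9.90 and 9.75 at 24 h. The treated arrays were above control by 0.27 at 6 h (adjusted p = 0.0401) and 0.34 at 24 h (adjusted p = 0.00851), the 24 h value turning to −0.07 with hybridization spike-in scaling. The 6 h call was lost at 0.26 to 0.28 without any one 6 h or control array. Its other probe sets gave 0.65 and 0.26 at 6 h and 1.11 and 0.35 at 24 h. DNAJB2, known from neurons, was higher by 0.47 and 1.10, with the 6 h call lost at 0.38 without 6 h replicate 2 and 0.42 without control replicate 2. DNAJB5 was lower at 6 h (−0.58, adjusted p = 0.000796) and gave 0.20 at 24 h (adjusted p = 0.0734), so that the 24 h arrays lay 0.78 above those of 6 h (adjusted p = 0.000224). DNAJB7 and DNAJB13 were higher at 24 h alone, by 0.36 (adjusted p = 0.0273) and 0.28 (adjusted p = 0.0258), both below 0 with hybridization spike-in scaling. Their calls were lost for DNAJB7 at 0.22 without 24 h replicate 1 and 0.27 without control replicate 1 and for DNAJB13 at 0.20 to 0.30 without any one control array or 24 h replicate 2, and DNAJB3 and DNAJB8 passed at neither time.

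DNAJB12 and DNAJB14, which work together in the ER membrane, were called in opposite directions. DNAJB12 had log2 signals of 8.66 and 8.49 in control, 7.48 and 7.39 at 6 h and 7.71 and 7.65 at 24 h. It was lower at both times, at −1.14 for 6 h (adjusted p = 3.86e-05) and −0.89 for 24 h (standard error 0.09, adjusted p = 5.8e-05), in all 6 of its probe sets. DNAJB14 was higher by 0.51 (adjusted p = 0.00249) and 0.55 (adjusted p = 0.000857). DNAJB6, which suppresses protein aggregation, was lower by its brightest probe set, with log2 signals of 10.92 and 10.94 in control, 10.25 and 10.22 at 6 h and 10.19 and 10.11 at 24 h. That gave −0.70 at 6 h (adjusted p = 0.000249) and −0.78 at 24 h (adjusted p = 5.63e-05), and the others gave 0.62, 0.66 and 0.67 at 6 h and −0.03, 0.01 and −0.24 at 24 h. The mean of its probe sets passed as higher at 6 h (0.32, adjusted p = 0.0483), so that its direction there depends on the probe set, and it did not pass at 24 h.

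**Figure D3:**
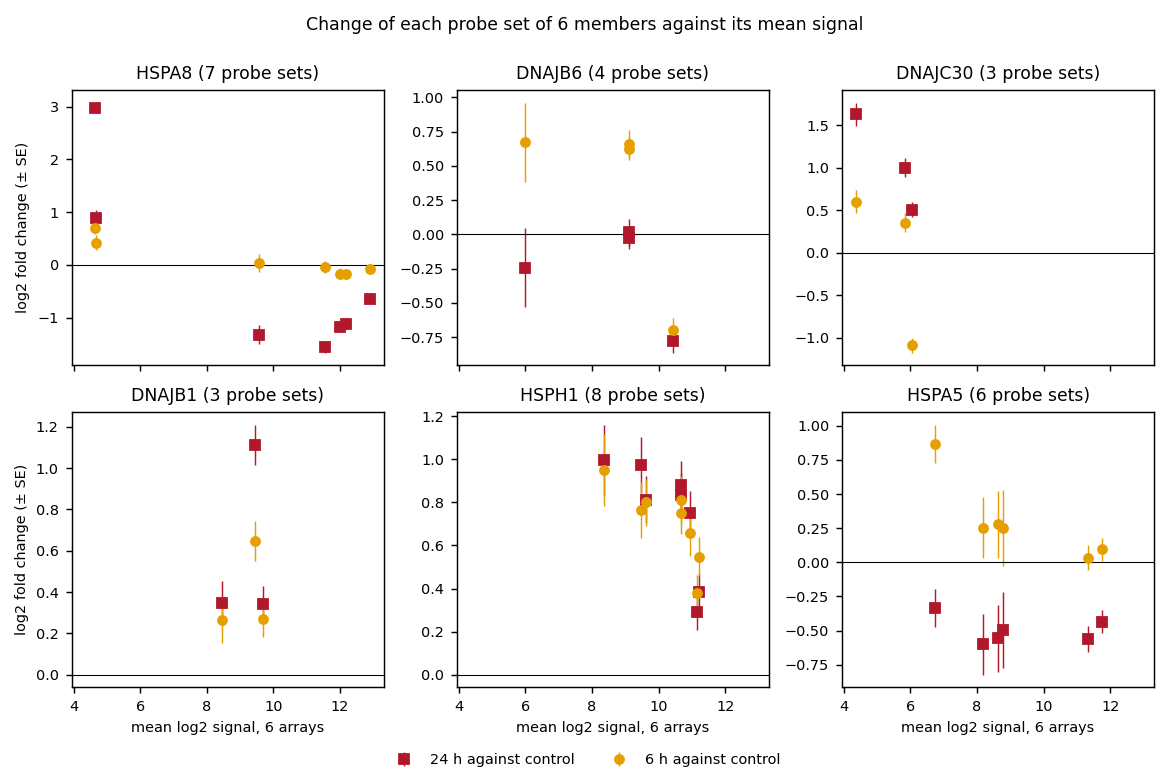
Log2 fold change (± standard error) of every probe set of 6 members at 24 h and 6 h against its mean log2 signal over the 6 arrays, which does not compare amounts between probe sets. All 8 probe sets of HSPH1 lie above 0, and those of HSPA8 at 24 h and of DNAJB6 and DNAJC30 at 6 h lie on both sides.

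Of the 57 members with several probe sets, 25 had probe sets of both signs at 6 h and 17 at 24 h. A further probe set passed against the called direction for DNAJB6 and DNAJC30 at 6 h, and for DNAJA1, DNAJC3, DNAJC10, DNAJC18 and HSPA8 at 24 h. DNAJC30, a J-protein of mitochondria, was the member called in opposite directions at the 2 times. Its log2 signals were 6.23 and 6.25 in control, 5.16 and 5.14 at 6 h and 6.67 and 6.82 at 24 h. The 6 h arrays lay below control (−1.09, adjusted p = 3.41e-05) and the 24 h arrays above it (0.50, standard error 0.08, adjusted p = 0.00106), a step of 1.59 between them (adjusted p = 1.66e-05). Its other probe sets gave 0.35 and 0.60 at 6 h and 0.999 and 1.63 at 24 h, so that the fall at 6 h rests on 1 probe set and the step up at 24 h was found in all 3.

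The 28 type C J-proteins share little beyond the J-domain. At 6 h they had 5 higher and 9 lower members (17.9% and 32.1%, beside 14.0% and 15.8% of all genes). At 24 h 8 were higher and 12 lower (28.6% and 42.9%, beside 31.2% and 23.0%). Among the brighter genes 21.4% were higher and 25.1% lower at 6 h, then 35.0% and 36.8% at 24 h. DNAJC5, the cysteine string protein of secretory vesicles, had the largest fall of all members at 24 h, with log2 signals of 8.01 and 8.01 in control, 7.25 and 7.23 at 6 h and 6.62 and 6.73 at 24 h. It was lower at each step, at −0.77 for 6 h (adjusted p = 0.000162) and −1.34 for 24 h (standard error 0.08, adjusted p = 3.11e-06), and its other probe sets gave −1.13, −0.29 and 0.08 at 24 h. With the mean of probe sets its 24 h value was −0.67, a smaller fall than that of DNAJA3 (−1.09). DNAJC14 had log2 signals of 8.23 and 8.27 in control, 7.40 and 7.27 at 6 h and 7.57 and 7.64 at 24 h, lowest at 6 h, with −0.92 at 6 h (adjusted p = 8.5e-05) and −0.65 at 24 h (adjusted p = 0.000256). The partial return of 0.27 was not past the threshold at 0.21 to 0.33 without any one of the 6 arrays, and turned to −0.05 with the mean of its probe sets and to −0.04 with hybridization spike-in scaling.

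DNAJC17 gave −0.51 at 6 h and −0.79 at 24 h, and its 24 h step over 6 h (−0.28) lost its call at −0.33 to −0.21 without any one 6 h array or 24 h replicate 1. DNAJC16 (−0.45 and −0.71), DNAJC13, an endosomal J-protein (−0.28 and −0.61), and DNAJC1 (−0.37 and −0.29) were also lower at both times. DNAJC13 lost its 6 h call at −0.31 to −0.20 without any one 6 h array or control replicate 2, and DNAJC1 lost calls at −0.35 without 6 h replicate 1 for 6 h and −0.26 without control replicate 1 for 24 h. Lower at 24 h alone were DNAJC21, which acts in ribosome assembly (−0.62), and DNAJC6, the auxilin that uncoats clathrin vesicles (−0.25), the last lost at −0.28 to −0.19 without any one 6 h or control array or 24 h replicate 2. DNAJC2, a ribosome-associated J-protein, and DNAJC22 were lower at 6 h alone (−0.30 and −0.50) and lost the call at −0.34 to −0.26 without any one 6 h or control array for DNAJC2 and at −0.52 to −0.32 without any one 6 h array or control replicate 2 for DNAJC22.

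By brightest probe sets DNAJC4 had the largest rise of the J-proteins at 24 h, with log2 signals of 6.12 and 5.86 in control, 6.84 and 6.90 at 6 h and 7.51 and 7.67 at 24 h. Its groups were all apart, at 0.88 for 6 h (adjusted p = 0.000384) and 1.60 for 24 h (standard error 0.11, adjusted p = 5.82e-06), and all 7 of its probe sets were positive at 24 h. With the mean of probe sets its 24 h value was 0.80, below those of DNAJB4 (1.27), DNAJC30 (1.04) and DNAJC24 (0.84). DNAJC24, needed to modify the elongation factor EEF2, was higher by 0.81 and 0.97. DNAJC27, a Rab-like protein, was higher by 0.42 and 0.92, and DNAJC25 by 0.45 and 0.56, with 6 h calls lost at 0.27 to 0.47 without any one 6 h array or control replicate 2 for DNAJC27 and at 0.43 without 6 h replicate 1 and 0.35 without control replicate 1 for DNAJC25. DNAJC9, a histone chaperone, gave 0.24 at 6 h (adjusted p = 0.0595) and 0.35 at 24 h (adjusted p = 0.00654), and −0.06 at 24 h with hybridization spike-in scaling. DNAJC15 and DNAJC18 were higher at 24 h alone, by 0.29 (adjusted p = 0.0199) and 0.34 (adjusted p = 0.02), both below 0 with hybridization spike-in scaling. Their calls were lost for DNAJC15 at 0.24 without 24 h replicate 2 and 0.24 without control replicate 1 and for DNAJC18 at 0.31 without 24 h replicate 1 and 0.23 without control replicate 1. Another DNAJC18 probe set was lower at both times (−0.59 at 6 h and −0.58 at 24 h), and with the mean of its probe sets the 24 h value was −0.11 and did not pass. DNAJC12 was higher at 6 h by its brightest probe set (0.33, adjusted p = 0.0142), lost at 0.30 to 0.35 without any one 6 h array or control replicate 1, and gave 0.20 at 24 h. Its other probe set gave −0.00 at 6 h and 0.59 at 24 h, and the mean of both passed at 24 h (0.39) and not at 6 h (0.16). DNAJC7, DNAJC8, DNAJC28, DNAJC5B and DNAJC5G passed at neither time.

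By compartment, 14 members were listed as ER proteins, with 5 higher and 4 lower at 6 h, then 6 higher and 6 lower at 24 h. At 6 h these were 35.7% and 28.6%, beside 14.0% and 15.8% of all genes. At 24 h they were 42.9% and 42.9%, beside 31.2% and 23.0% of all genes. Among the brighter genes 21.4% were higher and 25.1% lower at 6 h, then 35.0% and 36.8% at 24 h. DNAJC10 (ERdj5), a reductase of the ER lumen, had log2 signals of 9.39 and 9.61 in control, 9.52 and 9.52 at 6 h and 8.92 and 8.76 at 24 h, low at 24 h alone (−0.66, standard error 0.10, adjusted p = 0.000687), although 2 of its other probe sets were higher at 24 h (0.26 and 0.32). DNAJC3 (P58IPK), which restrains the ER stress kinase, gave 0.16 at 6 h and −0.25 at 24 h (adjusted p = 0.0388). The 24 h call of DNAJC3 was lost at −0.25 to −0.19 without any one 6 h array or 24 h replicate 2 or control replicate 2, and the mean of its probe sets was 0.04. DNAJB11 (ERdj3), another partner of HSPA5, was higher by 0.27 and 0.43, with the 6 h call lost at 0.20 to 0.30 without any one 6 h array or control replicate 1. Of 18 ER stress genes outside the members, 4 were higher and 1 lower at 6 h (22.2% and 5.56%). At 24 h 5 were higher and 4 lower (27.8% and 22.2%), near the shares of all genes. The secreted CRELD2 and MANF were higher at 24 h by 0.99 and 0.78, and the stress transcription factors ATF6 and XBP1 were at −1.29 and −1.07.

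Of 10 mitochondrial members, 1 was higher and 2 lower at 6 h (10.0% and 20.0%), then 3 higher and 5 lower at 24 h (30.0% and 50.0%). Of all genes 14.0% were higher and 15.8% lower at 6 h, then 31.2% and 23.0% at 24 h. Among the brighter genes 21.4% were higher and 25.1% lower at 6 h, then 35.0% and 36.8% at 24 h. The mitochondrial members higher at 24 h included DNAJC4 (1.60) and DNAJC30, which was lower at 6 h by its brightest probe set. Beside HSPE1, HSPA9 and DNAJA3, the lower ones were DNAJC11, of the cristae complex (−0.56), and DNAJC19, of the import motor (−0.59). DNAJC19 had log2 signals of 8.92 and 8.70 in control, 8.68 and 8.78 at 6 h and 8.13 and 8.32 at 24 h, low at 24 h alone. Of 10 mitochondrial proteases and chaperone partners, 1 was higher and 1 lower at 6 h (10.0% each), then 3 higher and 4 lower at 24 h (30.0% and 40.0%). The mitochondrial HSP90 TRAP1 and the protease YME1L1 were at −0.63 and −0.63 at 24 h.

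The heat-inducible core of 16 members, which includes the mitochondrial chaperonin, had 9 higher and 0 lower at 6 h (limma, and 10 higher and 0 lower at an unadjusted p under 0.05), and 11 higher and 2 lower at 24 h. That is 56.25% higher at 6 h, then 68.75% higher and 12.5% lower at 24 h. Of all genes 14.0% were higher and 15.8% lower at 6 h, then 31.2% and 23.0% at 24 h. Among the brighter genes 21.4% were higher and 25.1% lower at 6 h, then 35.0% and 36.8% at 24 h. The median log2 fold change of the core was 0.33 at 6 h and 0.36 at 24 h, beside 0.03 and 0.10 over all genes. The 9 were BAG3, DNAJA1, DNAJB1, DNAJB4, HSPA1A, HSPA1B, HSPA6, HSPB8 and HSPH1, joined at 24 h by HSPA4L and HSPB1, and the lower ones were HSPA8 and HSPE1. Of the 11, DNAJA1, DNAJB1, HSPA1A, HSPB1 and HSPH1 were below 0 at 24 h with hybridization spike-in scaling. The core was listed with earlier results of these data known, so its counts describe this list only. It holds HSPA8, a constitutive member, and not DNAJB6, which was lower at both times by its brightest probe set. Of 14 other HSF1 target genes measured, 4 were higher and 1 lower at 6 h (28.6% and 7.14%), then 4 higher and 2 lower at 24 h (28.6% and 14.3%). RGS2, a brake on G-protein signals, and ZFAND2A, an arsenite-inducible partner of the proteasome, were higher at 24 h by 3.09 and 1.86, and the collagen chaperone SERPINH1 was at −0.73.

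**Figure D4:**
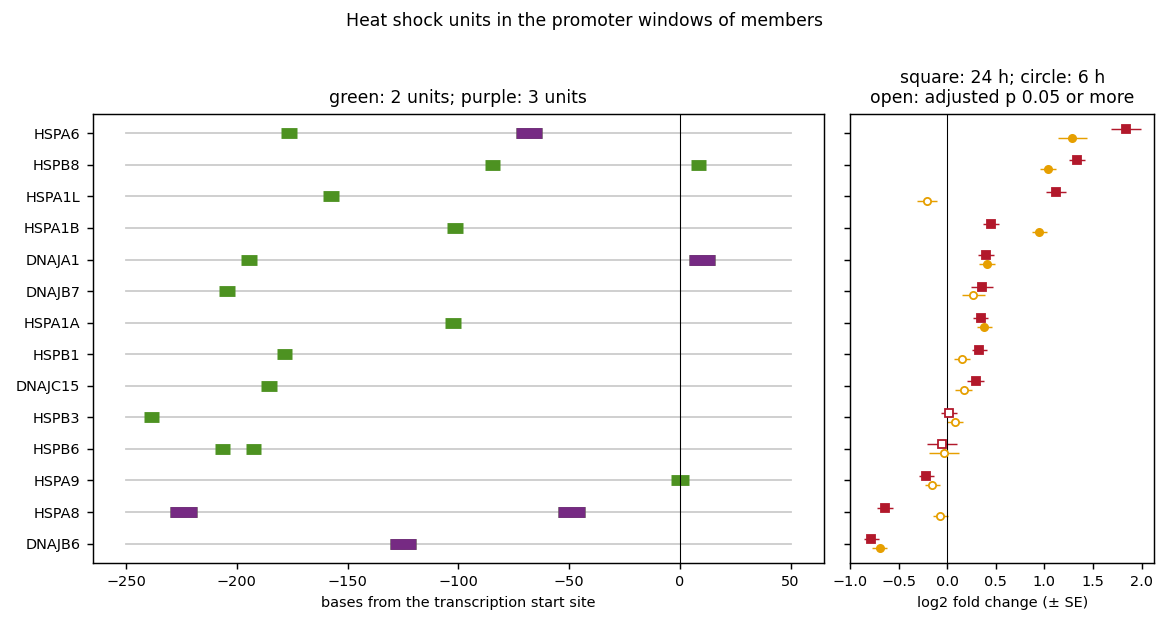
Left, pairs of inverted heat shock units and runs of 3 units in the promoter windows of 14 members, by distance in bases from the start site. Right, log2 fold change (± standard error) of the same members at 24 h and 6 h, open where the adjusted p was 0.05 or more, in which the members with 3 units range from 1.84 (HSPA6) to −0.78 (DNAJB6) at 24 h.

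Of the 14 members with inverted heat shock units in the window, 5 were higher and 1 lower at 6 h, then 9 higher and 3 lower at 24 h, with medians of 0.16 and 0.34. Of all genes 14.0% were higher and 15.8% lower at 6 h, then 31.2% and 23.0% at 24 h. With hybridization spike-in scaling, which lowers every member alike, DNAJA1, DNAJB7, DNAJC15, HSPA1A and HSPB1 of the 9 were below 0 at 24 h. HSPA1B then no longer passed. HSPA1A and HSPA1L hold the same GAANNTTC in the bases that they share. Of the 51 members with a window but none of these letters, 14 were higher and 11 lower at 6 h, then 19 higher and 17 lower at 24 h, with medians of 0.03 and 0.02. Of the 4 members with 3 units, HSPA6 and DNAJA1 were higher at 24 h, DNAJA1 turning below 0 with hybridization spike-in scaling, and HSPA8 and DNAJB6 were lower. Each gene was read at 1 RefSeq start only, so a member without these letters may hold them near another start. The difference between these sets was not tested.

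Partners of HSP70 and HSP90 outside the members also moved both ways. Of 10 exchange factors of HSP70, 5 were higher and 2 lower at 6 h (50.0% and 20.0%, beside 14.0% and 15.8% of all genes). At 24 h 5 were higher and 3 lower (50.0% and 30.0%, beside 31.2% and 23.0%). BAG1, which links HSP70 to the proteasome, averaged 8.09 at 24 h and 6.54 in control, a log2 fold change of 1.55, and SIL1, the exchange factor of HSPA5, averaged 5.05 at 24 h and 6.02 in control, a log2 fold change of −0.96. Of 19 HSP90 co-chaperones measured, 5 were higher (26.3%) and 0 lower at 6 h (limma, with the same counts at an unadjusted p under 0.05). At 24 h 7 were higher and 6 lower (36.8% and 31.6%), from CDC37L1 (1.50) and AHSA2P (1.33) to FKBP5 (−0.55). The lower ones count TRAP1, which is itself an HSP90 and no co-chaperone. TRAP1 was also counted among the mitochondrial partners. Of the 8 subunits of the chaperonin TRiC 1 was higher at 6 h (12.5%) and 2 at 24 h (25.0%), with CCT6A at 0.53 and CCT8 at 0.29. The CCT8 value was below 0 with hybridization spike-in scaling. Of 6 prefoldin subunits, PFDN1 was lower at both times (−0.43 and −0.23).

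**Figure D5:**
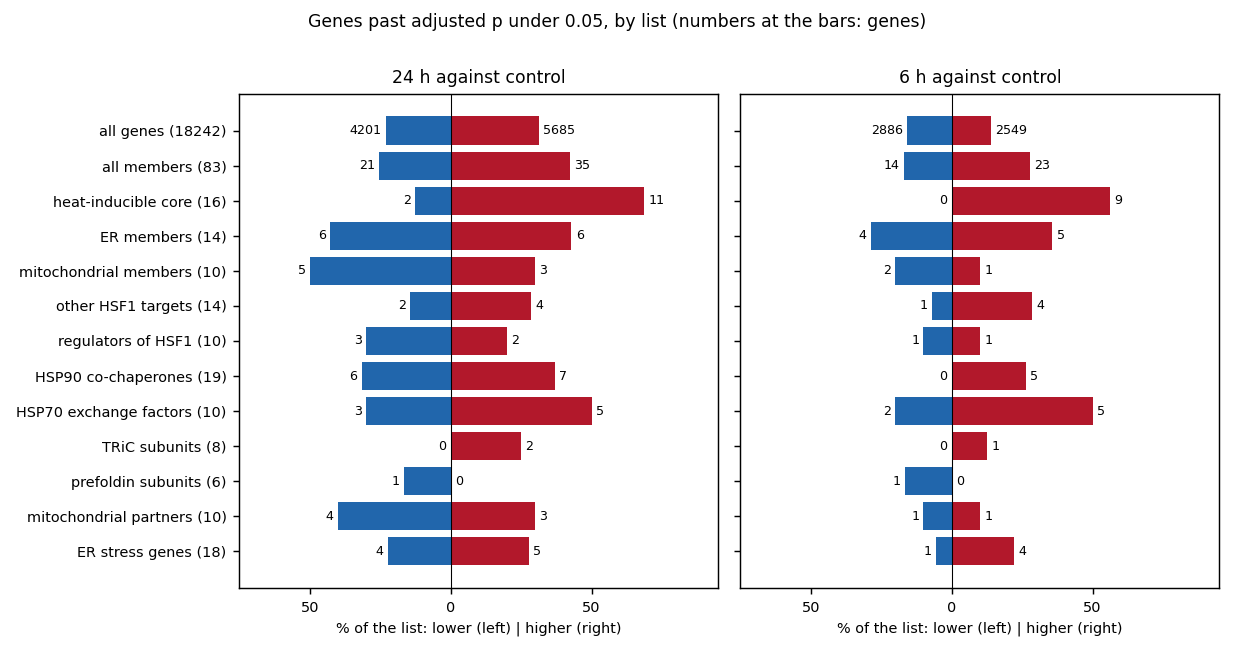
Share of each list past an adjusted p of 0.05, higher to the right and lower to the left, at 24 h (left panel) and 6 h (right panel) against control. The heat-inducible core has 11 of 16 genes higher and 2 lower at 24 h, beside 9 higher and 0 lower at 6 h.

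The length of a gene moved with the change in its signal. Over the 18177 genes with a span in RefSeq the rank correlation of span with log2 fold change was −0.24 at 6 h and −0.35 at 24 h, and over the 83 members it was −0.16 and −0.29, as a description over genes that share the same arrays. HSPA6, with the largest rise but one at 24 h, spans 2355 bases and HSPA2 7333, and DNAJC5, with the largest fall, spans 40886. There were exceptions in both directions, since HSPA8 at 4974 bases was lower at 24 h and DNAJC24 at 62976 bases was higher. The part of gene length in these changes was not tested.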

How the data were processed

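RNA of 6 HK-2 samples was hybridised to human U219 arrays. From the scans the authors computed log2 signals by robust multi-array average (RMA) in Affymetrix Expression Console 1.1, which corrects background, gives all arrays one distribution and summarises each probe set. These deposited log2 signals were used with no further normalization. Of 49386 probe sets, 45253 name 1 gene, 1327 several genes and 2713 none here, and 93 are controls. Probe sets of 1 gene were kept, with the highest mean over the 6 arrays standing for the gene (18242 genes).

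All 3 groups were fitted together in limma 3.58.1 (R 4.3.3; tables in Python 3.11.15), with 3 residual degrees of freedom per gene before moderation and Benjamini-Hochberg adjustment over all genes. Probe sets shared by members, and single probe sets of a member, were tested in a second fit over all probe sets. The script was tested on simulated data. The number of arrays limits the precision. The members, gene lists and tests were chosen with earlier results of these data known. Members described in every alternative were a fixed list of regulators and main chaperones plus the 6 largest rises and 6 largest falls past the threshold at each time, and of other lists at most the 2 largest rises and 2 largest falls were named. Alternatives were an average over the probe sets of a gene, a block for the replicate number, other moderation settings, only the groups compared, a filter (5 or more in 2 arrays), 3 scalings, other thresholds and each array left out. Protein sequences were not used here.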

Additional observations from a re-analysis of the deposited data

Results flagged for a closer look

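For 18 of the 33 members carried through every alternative, the 24 h and 6 h arrays differed when set against each other directly (limma, adjusted p under 0.05). In that comparison 21.2% of all genes were higher and 16.7% lower. The 33 were chosen in part for large changes against control in these same arrays, so their count does not stand for all members. The log2 difference of 24 h minus 6 h was 0.96 for HSPA2, 1.33 for HSPA1L, 0.55 for HSPA6 and 0.30 for HSPB8. Among J-proteins it was 1.59 for DNAJC30, 0.78 for DNAJB5, 0.71 for DNAJC4, 0.50 for DNAJB4 and 0.27 for DNAJC14. The 24 h arrays lay below those of 6 h for HSPE1 (−0.58), HSPA8 (−0.57), HSPA5 (−0.53), HSPA12A (−0.59) and HSPA1B (−0.50), and for DNAJA3 (−0.60), DNAJC5 (−0.56), DNAJC3 (−0.41) and DNAJC17 (−0.28). With hybridization spike-in scaling HSPB8 and DNAJC14 turned below 0, and HSPA6 (0.24) and DNAJB4 (0.19) no longer passed. The calls of DNAJC17, HSPA6 and HSPB8 were lost without some single arrays, and that of DNAJC14 without any one of the 6.

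Probe sets left out of the gene fit, because the platform assigns them to several members, also carried signal above control. The 2 probe sets of HSPA1A and HSPA1B together gave 0.85 and 1.10 at 6 h and 0.32 and 0.63 at 24 h, and the probe set of HSPA6 and HSPA7 gave 1.56 at 6 h and 2.11 at 24 h (limma, adjusted p under 0.05 each). Hybridization spike-in scaling lowers a 24 h value by 0.410, so that of these the 0.32 turns below 0.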

How the results depend on the processing

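The replicate numbers do not pair the arrays, since deviations of equally numbered arrays correlated at 0.05, −0.06 and −0.06. With the number as a replicate block, 21 members were higher and 13 lower at 6 h, 36 and 18 at 24 h, and 14 and 16 for 24 h against 6 h, each within 1.5 times the counts without the block, although 4 calls were lost at 6 h and 4 at 24 h. Hybridization spike-in scaling gave 15 higher at 6 h, 11 higher with 40 lower at 24 h, and 7 higher with 44 lower for 24 h against 6 h. Of the calls over all genes it left 30.3%, 15.0% and 11.4% higher, in place of 46.9%, 57.5% and 55.9%. All spike-ins gave 9 higher and 43 lower, 5 and 72, and 4 and 64, and 25 of the 56 members called at 24 h then changed sign, 24 of them past the threshold. With all spike-ins 6.31%, 3.55% and 3.46% of the calls over all genes were higher. Housekeeping scaling, other moderation settings, the filter, the mean of probe sets and the groups compared alone moved no count by over 1.5 times. An adjusted p under 0.01 left 9 higher for 24 h against 6 h. The 2-fold rule with an unadjusted p under 0.01 left 4 higher and 2 lower at 6 h, 8 and 1 at 24 h, and 2 and 0 for 24 h against 6 h. Without each array in turn, 15 to 24 were higher and 8 to 14 lower at 6 h, 25 to 32 and 17 to 19 at 24 h, and 9 to 14 and 11 to 16 for 24 h against 6 h. The counts that moved by over 1.5 times were 15 higher at 6 h without 6 h replicate 2, 9 lower at 6 h without control replicate 2, 8 lower at 6 h without 6 h replicate 1, and 9 higher for 24 h against 6 h without 6 h replicate 2. Of the calls, 21 of 37 at 6 h, 40 of 56 at 24 h and 19 of 31 between the times held without any one array.

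With the mean of probe sets, 5 calls were lost, 1 changed sign and 4 were gained at 6 h, and 6 were lost, 2 changed sign and 6 were gained at 24 h. Among the members carried through every alternative DNAJB6 turned to 0.32 at 6 h, DNAJC3 to 0.0365 at 24 h and DNAJC14 to −0.0450 for 24 h against 6 h. With hybridization spike-in scaling the 24 h value was −0.00842 for DNAJA1, −0.0683 for DNAJB1, −0.32 for HSF1, −0.39 for HSP90AA1, −0.39 for HSP90AB1, −0.0805 for HSPB1 and −0.027 for HSPH1, and that against 6 h −0.30 for DNAJB9, −0.0437 for DNAJC14 and −0.0155 for HSPB8. The scalings move every value by one amount per array, and the cause of the spike-in shift was not tested. Of the other settings of single members, 1174 kept direction and side of the threshold, 63 fell short of it and 37 newly passed. With 2 arrays a group, a group of which 1 array is left out is taken to vary like the others.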
